A study of Homo sapiens with 4 samples.

Results

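MITF, the microphthalmia-associated transcription factor, is the lineage regulator of pigment cells, and its locus was examined here for open chromatin. The locus was taken as the RefSeq span of MITF (gene ID 4286, hg38, chr3:69739464-69968332, plus strand, 228.869 kb) with 10 kb added on both sides, and every region of the authors' deposited table overlapping it was kept. This gave 25 of 125986 regions, by position alone, although the locus itself was chosen with earlier results of these data known. Accessibility had been measured by ATAC-seq, in which the transposase Tn5 cuts and tags open DNA, in A375, an established human melanoma cell line kept in DMEM with 10% serum. Of 4 libraries, 2 came from cells given 1 mM octanoate, a medium-chain fatty acid, for 48 h, and 2 from cells given its vehicle isopropanol for the same time. Nothing in the labels says whether libraries of 1 group came from separate cultures, so the authors' p-values measure only the spread between these libraries, which may be technical.

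MITF is a basic helix-loop-helix leucine zipper factor of the MiT/TFE family, which binds E-box sequences and drives pigment enzyme, melanosome, survival and cell cycle genes. The gene has several promoters far apart, each adding its own first exon to a shared body, so that long forms such as MITF-A start upstream while the melanocyte-restricted M form starts near the downstream end. The M promoter is known to be driven by SOX10, PAX3, LEF1 and, through a cyclic AMP response element (CRE), by CREB. Melanomas differ widely in MITF activity, and low and high levels are associated with different cell states.

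RefSeq's start table for GRCh38.p14 listed 3 starts of MITF, at positions 69739464, 69763811 and 69936592 of chromosome 3, which are called here the first, middle and last start. The last lay 197.128 kb after the first and is the position known as the M start; the table itself does not pair starts with transcripts, of which RefSeq lists 13. The 250 bases before the first and the last start are shown because these 2 are the starts whose windows, from 250 bases before to 50 bases after, were overlapped by a deposited region, and because they differ in base composition and motifs. Capitals mark matches on either strand to the motifs searched: the E-boxes CACGTG and CATGTG, the CRE TGACGTCA and its part TGACG, the SOX motifs ACAAAG and ACAATG, the AP-1 motif TGAGTCA, which reads TGACTCA on the other strand, the LEF/TCF motif CTTTGA and the GC box GGGCGG.

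Before the first start, chr3:69739214-69739463, plus strand: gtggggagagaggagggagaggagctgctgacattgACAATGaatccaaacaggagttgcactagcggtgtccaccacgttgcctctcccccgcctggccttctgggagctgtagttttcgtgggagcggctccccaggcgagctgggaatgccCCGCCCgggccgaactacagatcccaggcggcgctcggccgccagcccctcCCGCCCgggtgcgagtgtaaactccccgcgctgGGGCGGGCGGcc
Before the last start, chr3:69936342-69936591, plus strand: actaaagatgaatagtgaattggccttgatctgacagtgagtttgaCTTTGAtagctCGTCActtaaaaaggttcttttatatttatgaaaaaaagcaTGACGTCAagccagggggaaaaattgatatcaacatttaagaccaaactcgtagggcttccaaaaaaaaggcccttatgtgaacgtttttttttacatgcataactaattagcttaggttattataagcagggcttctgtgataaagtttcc

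The window before the first start was GC-rich, at 68.0% G and C against a median of 58.0% over the 35116 RefSeq start windows, and held 4 GC boxes, 2 of which overlap, and 1 SOX motif, ACAATG. At least 1 GC box stood in 42.6% of all windows and ACAATG in 9.29%. The window before the last start was AT-rich, at 34.8% G and C, and held no GC box. It held 1 CRE, 152 bases before the start, a motif present in 1.65% of all windows, and the TGACG part of this CRE on both strands as well as a separate TGACG; 21.2% of all windows had a TGACG. It also held 1 LEF/TCF motif, found in 11.2% of all windows. The window before the middle start, at 46.8% G and C, held 1 SOX motif, ACAAAG, found in 13.7% of all windows. Neither E-box was found in any of the 3 windows of MITF, against 6.34% of all windows with CACGTG and 9.42% with CATGTG. The AP-1 motif, in 4.20% of all windows, was not found in them either. These matches describe letters and do not show binding.

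No MITF region changed with octanoate past either threshold used here. The authors' deposited table called 0 of the 25 regions at an adjusted p under 0.05 (DESeq2, Benjamini-Hochberg). Only 1 of the 25 was in the adjusted set, since the authors' adjustment covered 11185 regions averaging 63.8 or more normalized reads, of which 1.02% were called. The other 24 MITF regions were therefore never tested with adjustment. At an unadjusted p under 0.05 the authors' deposited table also called 0 of 25 MITF regions, against 3.76% of all nuclear regions. At that share fewer than 1 call would fall among 25 regions, so a count of 0 is near the background.

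By read count, the first start was the strongest open site of the locus. Its region (chr3:69738359-69741429, 3071 bp, over the whole start window) had a mean over the 4 libraries of 168.4 normalized reads by the authors' deposited table, higher than 98.8% of nuclear regions. The table holds no value per library, so levels per condition were derived from its mean and fold change; they came to 161.4 for vehicle and 175.4 for octanoate. The log2 ratio, which here always means the log2 fold change of octanoate over vehicle, was 0.12 from the authors' deposited table, with a standard error of 0.17, an unadjusted p of 0.473 and an adjusted p of 0.772 (DESeq2). The 95% interval of -0.21 to 0.45 allows anything from a fold of 0.866 to a fold of 1.36. For comparison, 13005 other regions at RefSeq start windows had a median log2 ratio of 0.14 from the authors' deposited table, close to the value at the first MITF start. In bulk libraries, more cells with this site open and a more open site in each cell cannot be told apart.

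The M start was weakly open. A region of 357 bp (chr3:69936122-69936478) covered 137 of the 300 bases of the last start window, including the CRE and the LEF/TCF motif shown above, and ended 114 bp before the start itself. Its mean was 6.93 by the authors' deposited table, higher than only 25.8% of nuclear regions, and per kb of region it was 19.4 against 54.8 at the first start. The implied levels were 8.56 for vehicle and 5.30 for octanoate. The log2 ratio from the authors' deposited table was -0.69 with a standard error of 0.82 and an unadjusted p of 0.399, and its interval of -2.30 to 0.92 includes both a strong loss and a gain. The last start region minus the first start region differed by -0.81 (95% interval -2.45 to 0.83, from the deposited standard errors taken as independent), so these data do not separate the responses at the 2 starts.

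Around the M start, 5 further regions of the last of 4 equal parts of the gene were open. The nearest of these lay 1.42 kb after the start by its centre (chr3:69937792-69938236), with a mean of 14.6 and a log2 ratio of 0.18 (standard error 0.56) from the authors' deposited table. A wider region of 1119 bp, centred 13.5 kb before the M start (chr3:69922503-69923621), had a mean of 23.2 and a log2 ratio of -0.06 (standard error 0.44) from the authors' deposited table. It was the strongest of the 6 regions in that part, and both of these were singled out after the values were seen. Together these 6 held 14.3% of the summed signal of the locus, and their implied sums were 84.9 for vehicle and 76.9 for octanoate. All 6 had fold changes below the median of all nuclear regions, and all 6 intervals held that median.

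The middle start had no region on its window. The nearest region (chr3:69762457-69762975) ended 836 bp before it, with a mean of 11.0 from the authors' deposited table and implied levels of 9.53 for vehicle and 12.5 for octanoate. Its log2 ratio of 0.39 (standard error 0.65, unadjusted p 0.546) from the authors' deposited table was smaller than its own error.

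**Figure D1:**
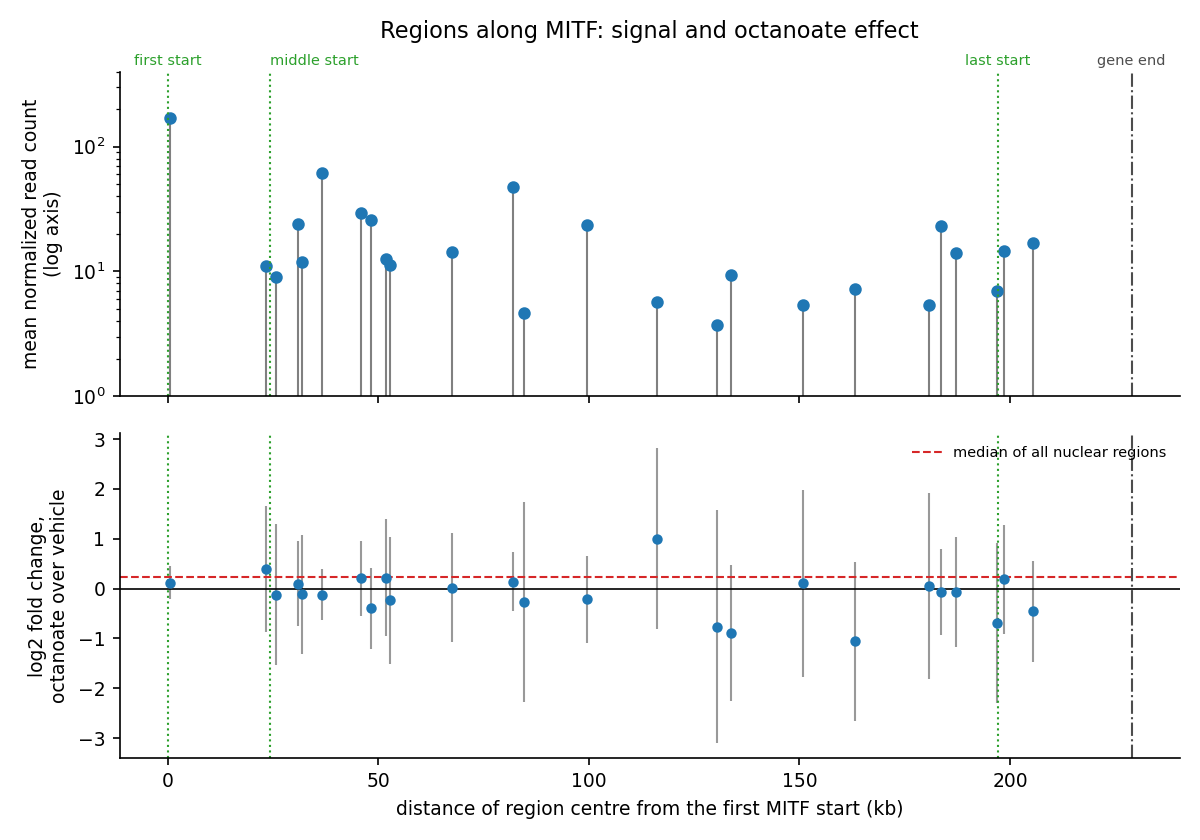
Top, mean normalized read count (log axis) of each of the 25 MITF regions by the distance of its centre from the first start (kb). Bottom, log2 ratio of octanoate over vehicle with 95% intervals from the authors' standard errors; green dotted lines mark the 3 starts and the red dashed line the median of all nuclear regions, 0.23. Every interval crosses 0, and the 5 widest belong to regions between 84.5 and 180.8 kb.

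Open chromatin was concentrated in the first part of the gene. With the gene cut into 4 equal parts in the direction of transcription, the first part held 10 regions and 64.4% of the summed signal, while the second held 4 regions with 15.9%, and the third 5 regions with 5.50%. Neither 10 kb flank contained a region centre, and the last 23.0 kb of the gene had none. The largest gap between neighbouring regions, 21.0 kb, ran from 1.97 kb to 23.0 kb after the first start. The locus was denser in regions than its surroundings, with 10.0 regions per 100 kb against 4.45 in the 1 Mb beyond it on both sides. These surroundings include stretches between genes, and the density within other genes was not compared.

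The strongest sites inside the gene lay in its first 100 kb. The region centred 36.6 kb after the first start (chr3:69775616-69776577) had a mean of 62.0, just under the authors' limit of 63.8 for adjustment. Its implied levels were 64.6 for vehicle and 59.4 for octanoate, and its log2 ratio from the authors' deposited table was -0.12 (standard error 0.26, unadjusted p 0.650). The region centred 81.9 kb after the start (chr3:69821080-69821667) was the densest of the locus, at 80.4 normalized reads per kb, above the first start and above 96.2% of nuclear regions. It had implied levels of 45.0 for vehicle and 49.5 for octanoate, and a log2 ratio of 0.14 (standard error 0.30) from the authors' deposited table. The region centred 45.8 kb after the start (chr3:69785011-69785444) had levels of 27.1 and 31.3, and a log2 ratio of 0.21 (standard error 0.38) from the authors' deposited table. The next region, centred 48.3 kb after the start (chr3:69787263-69788169), had the opposite sign, with 29.3 for vehicle, 22.2 for octanoate and a log2 ratio of -0.40 (standard error 0.41) from the authors' deposited table. With the first start, these regions made up the 5 strongest and held 58.6% of the summed signal. Their fold changes had both signs, and each interval held 0.

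Among the 13 MITF regions whose mean reached the median of all regions, 12.2, log2 ratios from the authors' deposited table ran from -0.46 to 0.22. The highest belonged to the region centred 51.8 kb after the first start (chr3:69791039-69791481, mean 12.5, standard error 0.60). The lowest was that of the region centred 205.5 kb after it (chr3:69944622-69945302), which is also 8.37 kb after the M start, with implied levels of 19.5 for vehicle and 14.2 for octanoate and a standard error of 0.52. Larger values came only from weak regions: 5 of the 25 exceeded 0.5 in size, and all 5 had a mean under 10. The extremes of all 25, singled out after the values were seen, were 1.00 (standard error 0.93, mean 5.70) at 116.2 kb and -1.05 (standard error 0.81, mean 7.17) at 163.1 kb, both from the authors' deposited table. For 22 of the 25 regions the fold change was smaller than its own standard error. The shares of all nuclear regions past these size limits were not counted, so these counts do not set MITF apart from other regions.

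**Figure D2:**
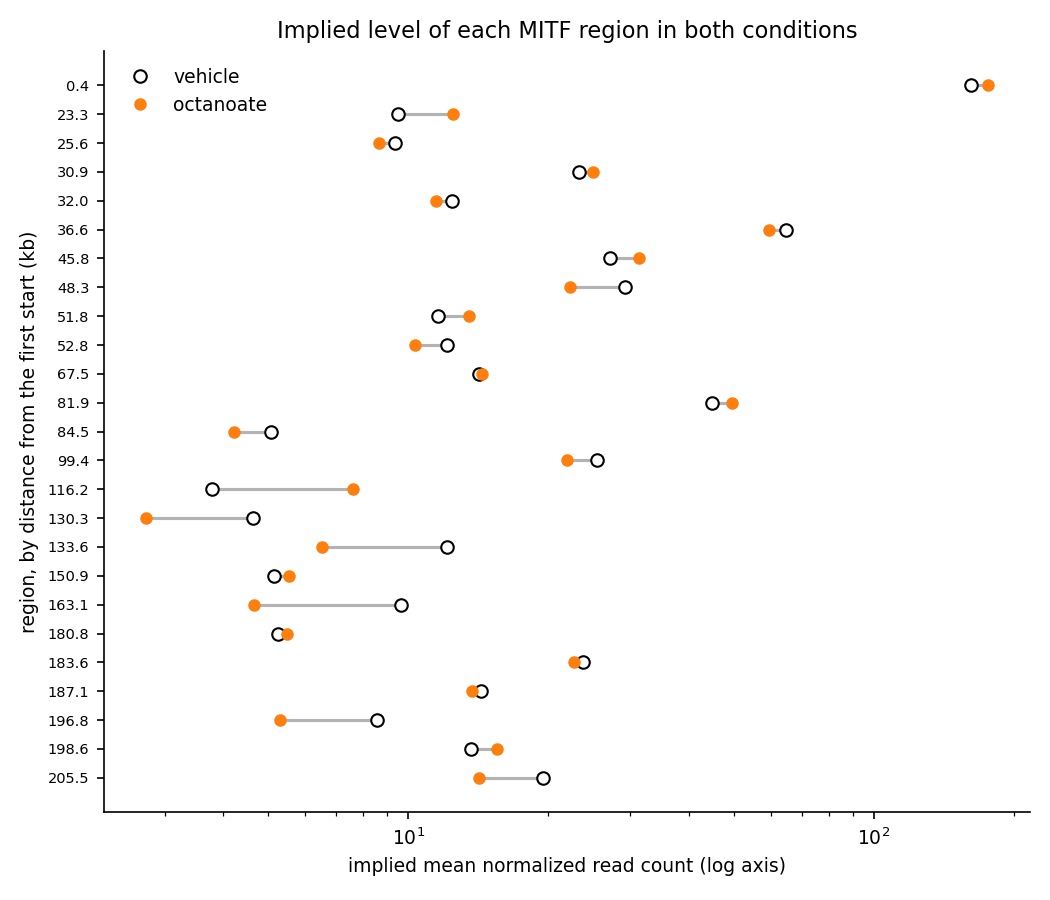
Implied mean normalized read count (log axis) of each MITF region in vehicle (open circles) and octanoate (orange), ordered along the gene by distance from the first start (kb). Levels are derived from the deposited mean and fold change and carry no error per condition; 11 regions are higher in octanoate and 14 in vehicle, and wide gaps occur only at low levels.

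Summed over the locus, implied signal was nearly equal in the 2 conditions. It was 570.7 for vehicle and 563.8 for octanoate, or -0.017 as the log2 of octanoate over vehicle, while the sums over all nuclear regions gave 0.21. The median log2 ratio of the 25 regions was -0.06 from the authors' deposited table, with quartiles of -0.27 and 0.12. Over all nuclear regions this median was 0.23, with quartiles of -0.04 and 0.52, so the MITF median lay 0.29 below it on the log2 scale. The spread among the MITF fold changes, an SD of 0.44 over regions, was smaller than their median standard error of 0.60. The same held over all nuclear regions, with an SD of 0.52 and a median standard error of 0.61.

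By sign, the authors' deposited table had 14 of 25 MITF regions (56.0%) lower after octanoate, against 27.9% of all nuclear regions. Relative to the median of all nuclear regions, 23 of 25 lay below it, and by construction about 50.0% of all regions do. The 2 exceptions were the region before the middle start and the weak one at 116.2 kb. All 25 intervals held the median of all regions as well as 0, so no single region was separated from either. After subtracting that median from each fold change, 0 of 25 MITF regions had an unadjusted p under 0.05, against 1.62% of all nuclear regions.

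Medians lay below those of other regions among both strong and weak MITF regions. The 13 MITF regions at or above the median signal had a median log2 ratio of 0.02, and 62980 other regions at or above it had 0.21, from the authors' deposited table. The 12 weaker MITF regions had a median of -0.18 and the other weaker regions 0.26. Away from start windows, the 23 MITF regions had a median of -0.06, against 0.24 for 51306 other such regions in protein-coding genes, from the authors' deposited table. No test of this difference between MITF and other regions was possible, because the regions share the same 4 libraries and the table holds no value per library.

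**Figure D3:**
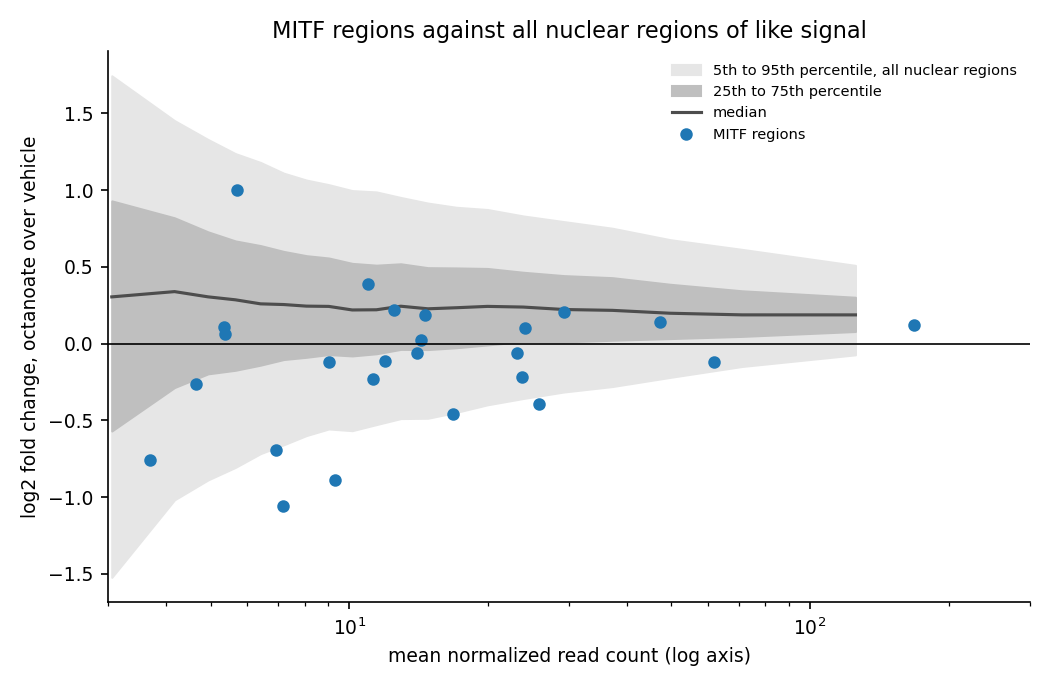
Log2 ratio of octanoate over vehicle against mean normalized read count (log axis) for the 25 MITF regions (blue) and, as grey bands, percentiles of all nuclear regions in 20 classes of signal. Of the 25 points, 23 lie below the median of regions of like signal, at all signal levels.

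Regions around MITF on chromosome 3 had higher medians than the locus, a difference that was not tested. The 89 regions within 1 Mb beyond the locus had a median log2 ratio of 0.24, and 9296 other regions of chromosome 3 had 0.23, from the authors' deposited table. FRMD4B, the nearest protein-coding gene on the upstream side, had 35 regions with a median of 0.22. MDFIC2, the nearest on the downstream side, had 4 regions with a median of 0.36. FOXP1, a forkhead factor gene, begins 986 kb downstream, and most of its span lies beyond that 1 Mb. It had 29 regions with a median of 0.23. SAMMSON, a melanoma long noncoding RNA gene that begins 31.3 kb after the end of MITF, had 20 regions with a median of 0.29 from the authors' deposited table. Of the 11 neighbouring genes with regions, LMOD3 alone, named after its value was seen, had a median below that of MITF, -0.33 over 2 regions.

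The start of SAMMSON gave a comparison at equal signal, chosen after the values were seen. Its region (chr3:69998923-70001358) had a mean of 167.1 against 168.4 at the first MITF start. It had a log2 ratio of 0.42 (standard error 0.16, unadjusted p 0.0113, adjusted p 0.178 by DESeq2) from the authors' deposited table. The SAMMSON value exceeded the MITF value by 0.30, with a 95% interval of -0.16 to 0.75 that holds 0.

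Among 351 protein-coding genes with 20 to 30 regions by the same rule, within 20% of the number at MITF, 11 had a lower median than MITF, 23 had a median below 0, and the median gene stood at 0.21. This order is a description of 1 comparison and was not tested. The 5 genes with the closest medians over this 1 comparison were UNC5C (-0.07, 28 regions), TMEM117 (-0.06, 26 regions), RIN2 (-0.06, 23 regions), SHROOM3 (-0.08, 24 regions) and CMSS1 (-0.04, 21 regions). Likeness here is the difference between medians, at most 0.018 for these genes, with no profile over libraries.

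The other MiT/TFE family members, which encode related factors, TFEB and TFE3 being regulators of lysosome and autophagy genes, had higher medians than MITF. TFEB had 6 regions with a median log2 ratio of 0.34, TFE3 had 4 with 0.24 and TFEC had 10 with 0.03, from the authors' deposited table. At the TFE3 start (chrX:49042834-49044162) the implied level was 147.3 for vehicle and 180.4 for octanoate, with a log2 ratio of 0.29 (standard error 0.17, adjusted p 0.397 by DESeq2) from the authors' deposited table. The TFEB start region (chr6:41733662-41735892) had 68.6 and 87.5, with a log2 ratio of 0.35 (standard error 0.24, adjusted p 0.490 by DESeq2) from the authors' deposited table. In TFEC the strongest region, away from its start windows (chr7:116138156-116139603), had 55.0 and 75.8. Of the 45 regions of the 4 genes, 0 had an unadjusted p under 0.05, against 3.76% of all nuclear regions. Only 4 of the 45 were in the adjusted set, and 0 of these were called, against 1.02% of that set, so both counts are near the background. Intervals of the tested regions overlapped that of the first MITF start.

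Regulators of MITF were called at about the background share. Of 18 genes listed as regulators of MITF, 19 tested regions gave 3 at an unadjusted p under 0.05 (15.8%), all higher after octanoate, and 0 at the adjusted threshold; among all tested regions 14.9% passed the unadjusted limit. All 3 lay within or near TCF7L2, which encodes a TCF factor of Wnt signalling. With the median of all nuclear regions subtracted, 0 of these 3 kept an unadjusted p under 0.05. The strongest of them (chr10:112991592-112992680, mean 169.7) had a log2 ratio of 0.38 (standard error 0.16, unadjusted p 0.0193, adjusted p 0.228 by DESeq2) from the authors' deposited table. The smallest p belonged to a region at chr10:113073538-113074280 with a log2 ratio of 0.61 (standard error 0.22, adjusted p 0.134 by DESeq2) from the authors' deposited table. Over all 123 regions of this list, the same 3 (2.44%) passed the unadjusted limit, against 3.76% of all nuclear regions, and the median was 0.03, with 42.3% below 0. With the median of all nuclear regions subtracted, 1 of the 123 passed it, against 1.62% of all nuclear regions. By gene, 5 of the 18 regulators had a median below 0 and 4 had one below that of MITF. The medians of single regulators ran in both directions, from -0.54 (PAX3) to 0.45 (SOX9). The 4 factors introduced above as acting on the M promoter, chosen after their values were seen, had medians of 0.03 over 4 regions (SOX10), -0.54 over 7 regions (PAX3), -0.23 over 13 regions (LEF1) and 0.005 over 2 regions (CREB1) from the authors' deposited table. Their summed implied signal, as the log2 of octanoate over vehicle, was -0.088 (SOX10), -0.014 (PAX3), -0.052 (LEF1) and 0.031 (CREB1). Other regulators of transcription in the list, also named after their values were seen, had higher medians than these, with 0.38 for CTNNB1, 0.25 for ONECUT2, 0.21 for ATF1 and 0.10 for TCF7L2. Each of the 4 M promoter factors had 0 regions at an unadjusted p under 0.05, against 3.76% of all nuclear regions, so with so few regions a count of 0 is near the background. With the median of all nuclear regions subtracted, LEF1 had 1 of its 13 regions under that limit, and SOX10, PAX3 and CREB1 had 0. The share of all nuclear regions was then 1.62%.

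The 28 genes listed as targets of MITF had 183 regions with a median log2 ratio of 0.20 and 26.8% below 0, from the authors' deposited table. Among their 25 tested regions, 3 had an unadjusted p under 0.05 (12.0%, below the share over all tested regions), all higher after octanoate, and 0 passed the adjusted threshold. They were in or near OCA2, a melanosome transporter gene, DIAPH1, an actin regulator, and GNPTAB, an enzyme that tags proteins for the lysosome. The OCA2 region (chr15:27843856-27844849) had a mean of 71.5 and a log2 ratio of 0.80 (standard error 0.25, adjusted p 0.0758 by DESeq2) from the authors' deposited table. At DIAPH1 (chr5:141520334-141521965) the value was 0.39 (adjusted p 0.299 by DESeq2), and at GNPTAB (chr12:101830333-101831446) it was 0.33 (adjusted p 0.312 by DESeq2), from the authors' deposited table. With the median of all nuclear regions subtracted, only the OCA2 region of these 3 kept an unadjusted p under 0.05. Over all 183 regions, 10 passed the unadjusted limit (5.46%), against 3.76% of all nuclear regions. All 10 were higher after octanoate, and they lay in or near OCA2 (3 regions), DIAPH1 (3), PPARGC1A (2), GNPTAB (1) and BCL2A1 (1). After subtracting the median of all nuclear regions from each fold change, 3 of the 183 passed that limit, against 1.62% of all nuclear regions. PPARGC1A and BCL2A1, with calls only outside the tested set, were named after their values were seen. By gene, 5 of the 28 targets had a median below 0 and 4 had one below that of MITF.

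**Figure D4:**
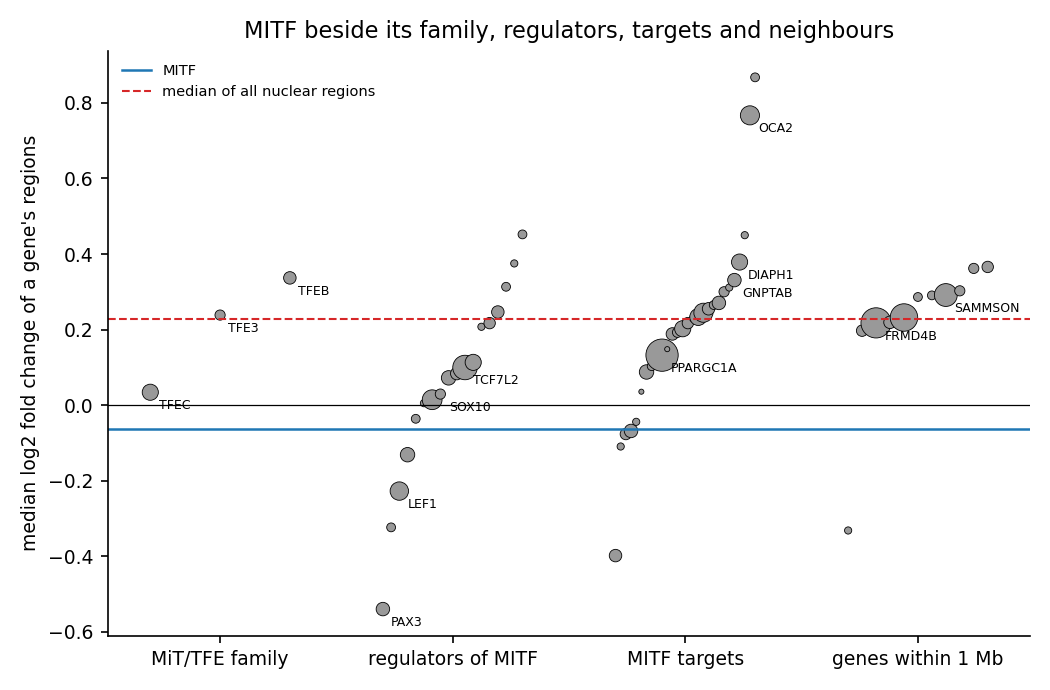
Median log2 ratio, octanoate over vehicle, of the regions of each gene in the MiT/TFE family without MITF, among regulators of MITF, among its targets and among genes within 1 Mb; the area of a point grows with the number of regions, from 1 to 40. The blue line is MITF at -0.06 and the red dashed line the median of all nuclear regions at 0.23; the 3 family members lie above the blue line, as do all but 4 of the 18 regulators and all but 4 of the 28 targets.

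Markers of melanocytic and undifferentiated melanoma were checked at RefSeq start windows. Regions overlapped those of MITF (strongest mean 168.4), DCT (30.0), EGFR (73.9) and AXL (61.7), and none overlapped those of MLANA or TYR. SOX10, PMEL, NGFR and SOX9 had no entry in the table of start windows. The open first start of MITF and the region-free starts of MLANA and TYR were measured in the same cells, and accessibility at a start gives no expression level.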

How the data were processed

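Open chromatin was measured by ATAC-seq in 4 libraries of A375 cells, 2 with octanoate and 2 with vehicle, grouped by their titles. The authors deposited 1 table comparing the groups, with 0 columns per library, so the depth of each library is unknown. The signal values, per the file headers, are mean normalized read counts over the libraries, and the log2 values are fold changes of octanoate over vehicle with a standard error. Wald statistics make up the deposited score, and each deposited p-value is the two-sided p of one. The submitters' processing notes name build hg38, Trim Galore, cutadapt, FastQC, Bowtie2, Picard, MACS2, featureCounts, DESeq2 and bedtools 2.29.1, with no settings; the scaling and any shift for the Tn5 cut are not given in the sources used here. With 1 size factor per library, another scaling would move all fold changes by a constant, so MITF values are also set against the overall median; a scaling that depends on signal could move regions unequally and was not tested.

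The deposited adjusted p equalled Benjamini-Hochberg adjustment within the 11185 regions averaging 63.8 or more and was listed as 1 in the other 114801, which count as not tested. No group test was run beside the authors'. Region starts were counted from 1. Implied levels solve the deposited mean, taken as the average of 2 equal groups, for the deposited fold; intervals are the fold change ± 1.96 standard errors. Genes and start windows came from RefSeq GRCh38.p14; exons and introns were not used here. Regions of every gene were those within its span and 10 kb on both sides.

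The MITF locus, gene lists and alternatives were chosen with earlier results of these data known. Named regions are those nearest a start, tested, among the 5 strongest, or extreme in fold change at or above the median signal; named list genes had a tested region with an unadjusted p under 0.05 (at most 10) or belonged to the MiT/TFE family. Exceptions, chosen after their values were seen, are marked in the text. The adjustment, overlap and implied-level code (Python 3.11.15, pandas 2.3.3, numpy 2.4.6, scipy 1.17.1) was tested on simulated data. Alternatives changed the centring, the span, the signal filter, the threshold and the set adjusted over.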

Additional observations from a re-analysis of the deposited data

How the results depend on the processing

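The count of 0 MITF regions with an adjusted p under 0.05 was also 0 with adjustment over all regions, at 0.1, after centring on the tested median, and with flanks of 0 or 50 kb. The count of 0 at an unadjusted p under 0.05 became 1 with 50 kb flanks, which add 4 regions including the SAMMSON start, and was 0 under the other alternatives. The median log2 ratio of -0.06 became -0.29 when centred on the median of all nuclear regions and -0.25 on that of the tested regions, because each subtracts a positive constant. It reversed to 0.022 in the 13 regions at or above the median signal and to 0.12 in the 1 tested region, which leave out the weak regions; with 0 or 50 kb flanks it was -0.06. The summed log2 ratio of -0.017 was 0.080 with 50 kb flanks, through the SAMMSON start region, and -0.075 without the first start region. With 1 of 25 regions in the authors' adjustment and a median standard error of 0.60, a log2 ratio of 1.18 would be needed at a typical MITF region for an unadjusted p of 0.05. No paired analysis was possible because values of single libraries were not in the table, and for the same reason no library could be left out and no other count test or scaling run.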
